A study of Mus musculus with 10 samples.

Results

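The unfolded protein and integrated stress response was described through 42 genes: chaperones and degradation genes of the endoplasmic reticulum (ER), the stress sensors, the regulators ATF4 and CHOP with their effectors, and genes of amino acid supply. The genes were found by the Entrez ID of each symbol, and all 42 were among the 27178 gene IDs of the deposited tables. They divide into 13 ER chaperones and foldases, 4 genes of ER-associated degradation, 4 stress sensors or XBP1, 11 ATF4-CHOP regulators and effectors, and 10 genes of amino acid supply. The data are 10 bulk RNA-seq libraries, 2 for each of 5 groups, made from embryonic mouse cortical cells that had been sorted for GFP.

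The first experiment compared C57BL/6 cortex carrying Nestin-Cre and Ccn1fl/fl (CcKO) with wildtype C57BL/6 cortex (WT) at E17.5. Nestin-Cre acts in neural progenitors and is passed to their progeny. The cortex of both groups had received PB-Ctrl, the control PiggyBac plasmid, by electroporation at E14.5. The second used wildtype ICR cortex at E15.5, electroporated at E13.5 with a GPC4 plasmid (PB-GPC4), a CCN1 plasmid (PB-CCN1) or PB-Ctrl. All 5 groups received the transposase plasmid at 3 µg/µl and the PiggyBac plasmid at 1.5 µg/µl. CCN1 is a secreted matricellular protein, and GPC4 is a heparan sulfate proteoglycan held at the cell surface by a lipid anchor. The promoter that drives the plasmid genes is not given in the labels, and the labels do not say whether the 2 libraries of a group came from separate embryos or litters. The p-values therefore measure the spread between these libraries, which may be technical. Strain and age differ between the experiments, so levels were compared within each.

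Proteins that enter the secretory pathway fold in the ER lumen with the help of chaperones such as BiP, the product of Hspa5. When unfolded protein accumulates, the sensors IRE1, ATF6 and PERK start the unfolded protein response: IRE1 splices the Xbp1 mRNA, XBP1 and ATF6 raise chaperone and degradation genes, and PERK phosphorylates eIF2α. Phosphorylated eIF2α, which is also produced by the amino acid sensor GCN2, slows translation in general while favouring translation of ATF4, the factor that raises genes of amino acid synthesis, import and tRNA charging. Gene counts do not show Xbp1 splicing or ATF4 protein.

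Total counts lay between 22505945 and 30825498 per library, and all 42 genes passed the filter on low counts. Nupr1 came closest to that filter, with 2 to 14 reads per library. Ccn1 stood at 0.669 and 3.12 CPM (counts scaled to library size, TMM-normalised) in CcKO, against 17.7 and 12.1 CPM in WT. In the second experiment Ccn1 stood at 7099 and 7004 CPM in PB-CCN1 and Gpc4 at 5118 and 5004 CPM in PB-GPC4, against 50.5 and 57.4 CPM of Ccn1 and 70.6 and 66.1 CPM of Gpc4 in PB-Ctrl, so each manipulation showed in every library. The neuron marker list summed to between 4180 and 5049 CPM and the radial glia list to between 694 and 950.3 CPM over the 10 libraries, against at most 15 CPM for each of the microglial, endothelial, mural and erythroid marker lists. At E17.5 the oligodendrocyte lineage list summed to 78.05 to 80.14 CPM in CcKO and 70.05 to 82.95 CPM in WT. The interneuron list summed to 54.87 to 65.96 CPM in CcKO and 42.49 to 54.45 CPM in WT. In the E15.5 groups these lists reached at most 3.828 and 17.4 CPM. In bulk samples, fewer cells of a type and less RNA per cell cannot be told apart.

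The 42 genes took 0.448% and 0.458% of all counts in PB-GPC4 and 0.419% and 0.422% in PB-CCN1, against 0.391% and 0.387% in PB-Ctrl. At E17.5 they took 0.352% and 0.366% in CcKO, against 0.385% and 0.386% in WT. Both overexpression groups lay above their control without overlap, and the knockout lay below its own.

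By the edgeR quasi-likelihood test with Benjamini-Hochberg adjustment over 15371 genes (threshold 0.05), 23 of the 42 genes were higher and 0 lower in PB-GPC4 against PB-Ctrl, where 3.19% of all genes tested were higher and 3.17% lower (6.36% in all). At an unadjusted p under 0.05 the counts were 27 higher and 0 lower, and DESeq2 called 22 higher and 0 lower. In PB-CCN1 against PB-Ctrl, 6 were higher and 0 lower by edgeR (7 and 0 by DESeq2, 16 and 0 at an unadjusted p under 0.05), beside 0.442% of all genes higher and 0.748% lower (1.19% in all). Directly between the plasmids, 6 were higher in PB-GPC4 than in PB-CCN1 and 0 lower by edgeR (9 and 0 by DESeq2, 16 and 2 at an unadjusted p under 0.05), beside 0.755% of all genes higher and 1.4% lower (2.15% in all). In CcKO against WT, 5 were higher and 11 lower, beside 17.4% of all genes higher and 12.9% lower. That is 16 of 42 called in the knockout where 30.3% of all genes were called, a share near the background, and DESeq2 called 5 higher and 11 lower. DESeq2 called 28.6% of all genes in the knockout, 7.29% in PB-GPC4, 1.37% in PB-CCN1 and 2.57% between the plasmids. Without regard to any test, both libraries lay above both control libraries for 34 of the 42 genes in PB-GPC4 and below them for 2 (26.7% and 27% of all genes), and for 27 and 3 in PB-CCN1 (23.5% and 21.9%). The counts were 25 above and 2 below between the plasmids (23.3% and 23.6%) and 9 above and 20 below in the knockout (32.7% and 28.6%). The median log2 fold change of the 42 was 0.32 in PB-GPC4 and 0.14 in PB-CCN1 against PB-Ctrl, 0.13 between the plasmids and -0.10 in the knockout, while the median over all genes tested lay within 0.0204 of 0 in each comparison. The 2 comparisons with PB-Ctrl share those control libraries.

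**Figure D1:**
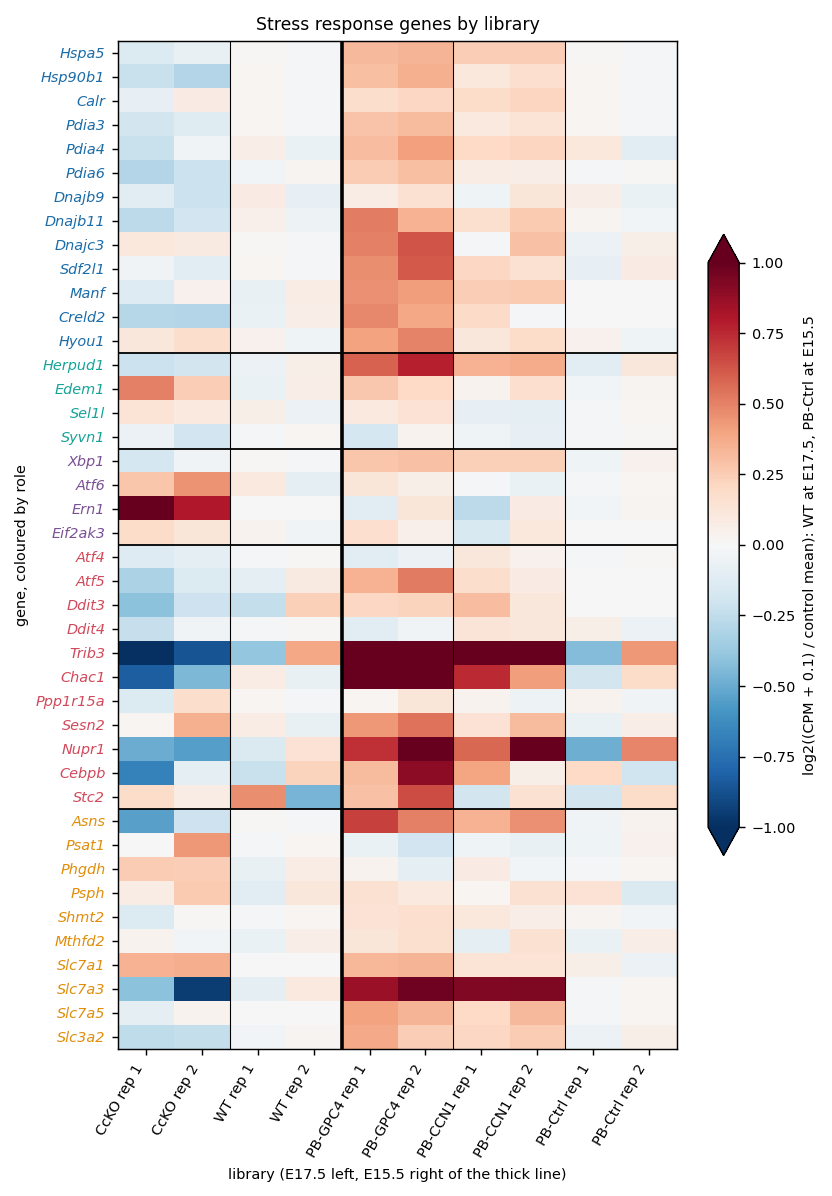
Colour gives log2 of CPM plus 0.1 over the mean of the control group of the same age, for each gene (rows, coloured by role) in each of the 10 libraries (columns). The PB-GPC4 columns are red over nearly the whole chaperone block, PB-CCN1 columns are paler, and at E17.5 the CcKO columns mix blue chaperones with a red Ern1 row.

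Per length of transcript, the genes spanned a wide range. In PB-Ctrl the highest were Hspa5 at 179 ± 2.41 FPKM and Calr at 178 ± 4.21 FPKM (SD, n = 2), which did not differ beyond their spread. Atf4 at 136 ± 0.94, Hsp90b1 at 133 ± 2.42 and Pdia6 at 127 ± 0.75 FPKM came next. Trib3 at 0.556 ± 0.249 and Nupr1 at 0.262 ± 0.194 FPKM were lowest, with overlapping spreads. Atf4 RNA was thus among the 3 highest levels of the 42 genes in the control, while its effector Trib3 was near the bottom.

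XBP1, ATF6 and ATF4 act on short promoter elements, and RefSeq promoter windows (250 bases before to 50 after the annotated start, build GRCm38.p6, the same primary assembly as mm10) were found for 37 of the 42 genes. No window was used for Manf, Hyou1, Atf6, Slc7a3 and Slc7a5. The motifs below were searched on both strands: the ER stress response element ERSE (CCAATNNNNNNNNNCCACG), ERSE-II (ATTGGNCCACG) and the C/EBP-ATF response element CARE (TGATGNAA). ERSE and ERSE-II end in the same CCACG letters. ERSE lay in windows of 6 of 11 chaperones (54.5%), Calr, Creld2, Dnajc3, Hsp90b1, Hspa5 and Pdia6, and of Syvn1, against 0.119% of all 32851 windows. ERSE-II lay in Dnajb11 and Herpud1, against 0.0365% of all windows. CARE lay in Chac1, Trib3, Nupr1, Asns and Herpud1, against 3.97% of all windows. By role, it lay in 3 of 12 ATF4-CHOP windows, 1 of 10 supply windows and 1 of 4 degradation windows. CARE lay in 0 of the 11 chaperone windows, and ERSE in 0 windows of the ATF4-CHOP and amino acid supply genes. With such low shares over all windows, 0 matches in so few windows do not set the roles apart. A match describes the letters and is not a bound site. The 42 genes were picked as known genes of these responses, so shares above those over all windows are no test of the elements. Windows are shown for Hspa5 and Hsp90b1, abundant chaperones with the ERSE, for Herpud1, whose window holds both kinds of element, and for the 3 called ATF4 effector or supply genes with CARE. The letters are 5′ to 3′ on the strand of the gene, and capitals mark the match, its free N letters included. They are Hspa5 at chr2:34771840-34772139 (+), Hsp90b1 at chr10:86705395-86705694 (-), Herpud1 at chr8:94386179-94386478 (+), Chac1 at chr2:119350992-119351291 (+), Trib3 at chr2:152344011-152344310 (-) and Asns at chr6:7693160-7693459 (-).
Hspa5: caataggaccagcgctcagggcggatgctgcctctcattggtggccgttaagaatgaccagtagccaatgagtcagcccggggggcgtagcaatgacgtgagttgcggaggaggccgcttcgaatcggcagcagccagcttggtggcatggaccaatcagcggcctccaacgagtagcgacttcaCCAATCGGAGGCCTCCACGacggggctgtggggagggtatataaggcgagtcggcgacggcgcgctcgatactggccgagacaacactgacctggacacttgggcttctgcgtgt
Hsp90b1: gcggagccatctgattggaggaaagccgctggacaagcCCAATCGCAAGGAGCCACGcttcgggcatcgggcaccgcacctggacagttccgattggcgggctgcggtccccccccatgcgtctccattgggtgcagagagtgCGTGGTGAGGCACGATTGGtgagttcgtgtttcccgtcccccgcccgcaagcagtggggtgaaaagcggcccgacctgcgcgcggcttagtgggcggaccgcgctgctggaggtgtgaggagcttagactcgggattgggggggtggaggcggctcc
Herpud1: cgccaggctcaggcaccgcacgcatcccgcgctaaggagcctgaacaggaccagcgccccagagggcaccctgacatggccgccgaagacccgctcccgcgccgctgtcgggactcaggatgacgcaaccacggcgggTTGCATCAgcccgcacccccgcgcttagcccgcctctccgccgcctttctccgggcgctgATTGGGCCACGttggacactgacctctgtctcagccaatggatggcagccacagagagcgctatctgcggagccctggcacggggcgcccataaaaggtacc
Chac1: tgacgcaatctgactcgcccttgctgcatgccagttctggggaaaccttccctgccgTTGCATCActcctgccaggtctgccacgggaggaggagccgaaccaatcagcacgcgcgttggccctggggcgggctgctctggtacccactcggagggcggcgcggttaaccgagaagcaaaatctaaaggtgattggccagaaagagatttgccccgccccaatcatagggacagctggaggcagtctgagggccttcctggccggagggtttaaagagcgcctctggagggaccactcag
Trib3: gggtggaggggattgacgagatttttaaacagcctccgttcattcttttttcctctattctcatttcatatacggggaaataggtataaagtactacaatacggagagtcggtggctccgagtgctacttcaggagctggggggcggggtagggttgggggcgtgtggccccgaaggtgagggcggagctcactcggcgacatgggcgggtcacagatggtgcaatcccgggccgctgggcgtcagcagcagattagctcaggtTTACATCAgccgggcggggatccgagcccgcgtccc
Asns: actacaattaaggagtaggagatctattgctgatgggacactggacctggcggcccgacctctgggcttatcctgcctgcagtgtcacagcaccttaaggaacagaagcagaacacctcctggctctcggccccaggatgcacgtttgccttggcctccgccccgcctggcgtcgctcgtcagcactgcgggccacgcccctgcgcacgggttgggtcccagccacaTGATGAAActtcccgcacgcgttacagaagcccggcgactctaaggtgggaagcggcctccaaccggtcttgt

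The elements differ in place. Counting the annotated start as position 1, the ERSE of Hspa5 spans -65 to -47, and Hsp90b1 holds one at -212 to -194 and one on the opposite strand at -107 to -89. In Herpud1, ERSE-II spans -52 to -42 and CARE, on the opposite strand, -112 to -105. CARE spans -193 to -186 in Chac1, 15 to 22 in Trib3 (both on the opposite strand) and -23 to -16 in Asns. The other chaperone elements, with fixed letters in capitals and free letters in lower case, show how far the middle of the ERSE varies; those of Calr and Creld2 lie on the opposite strand and so read from the other end.
Dnajc3: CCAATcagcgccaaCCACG
Pdia6: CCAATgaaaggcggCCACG
Calr: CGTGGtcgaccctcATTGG
Creld2: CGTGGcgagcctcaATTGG
Dnajb11: ATTGGcCCACG

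The ER chaperones and foldases formed the most uniform group in the GPC4 experiment: 12 of 13 rose in PB-GPC4 against PB-Ctrl by 0.20 to 0.57 on the log2 scale, the exception being Dnajb9, and in all 13 both PB-GPC4 libraries lay above both PB-Ctrl libraries (26.7% of all genes tested did so). Hspa5, the ER Hsp70 chaperone BiP that also holds the sensors inactive, stood at 581 and 585 CPM in PB-GPC4 and 549.6 and 549 CPM in PB-CCN1, against 467 and 459 CPM in PB-Ctrl. The 3 groups did not overlap, and the log2 fold change was 0.33 ± 0.04 (SE) in PB-GPC4 (edgeR adjusted p = 1.71e-05) and 0.25 ± 0.04 in PB-CCN1 (edgeR adjusted p = 0.00188). Hyou1, a nucleotide exchange factor and partner of BiP, stood at 183 and 195 CPM in PB-GPC4 and 150.3 and 157 CPM in PB-CCN1, against 142 and 135 CPM in PB-Ctrl. It rose by 0.45 ± 0.06 in PB-GPC4 (edgeR adjusted p = 1.41e-05), and its 0.15 ± 0.06 in PB-CCN1 did not pass (edgeR adjusted p = 0.291), although those libraries too lay above the control. Hsp90b1, the ER Hsp90 chaperone GRP94, stood at 449 and 465 CPM in PB-GPC4 and 393 and 409.8 CPM in PB-CCN1, against 369 and 360.3 CPM in PB-Ctrl. The groups again stood in that order without overlap, with 0.33 ± 0.05 in PB-GPC4 (edgeR adjusted p = 6.27e-05) and 0.14 ± 0.05 in PB-CCN1, which did not pass (edgeR adjusted p = 0.207). Without strand information, reads of Hsp90b1 cannot be told from those of overlapping transcripts, which cover 14.7% of its exonic bases on the opposite strand and 6.94% on the same strand.

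Manf, an ER-resident and secreted cofactor of BiP, stood at 159.9 and 156 CPM in PB-GPC4 and 138 and 139.7 CPM in PB-CCN1, against 116 and 117 CPM in PB-Ctrl. It rose by 0.44 ± 0.06 in PB-GPC4 (edgeR adjusted p = 5.26e-05) and by 0.25 ± 0.06 in PB-CCN1 (edgeR adjusted p = 0.0433), with no overlap among the 3 groups. Genes on the opposite strand cover 6.74% of its exonic bases. A pair of J-domain cochaperones of BiP separated the plasmids differently. Dnajb11 (ERdj3) stood at 91.0 and 81.6 CPM in PB-GPC4 and 71.6 and 76.7 CPM in PB-CCN1, against 65.3 and 62.7 CPM in PB-Ctrl, and rose by 0.43 ± 0.07 in PB-GPC4 (edgeR adjusted p = 2.82e-04). Dnajc3 (p58IPK, which also restrains PERK) stood at 44.6 and 48.4 CPM in PB-GPC4, against 30.1 and 32.6 CPM in PB-Ctrl. Its rise of 0.57 ± 0.10 (edgeR adjusted p = 4.09e-04) was the highest value among the 13, an order that was not tested. Its PB-CCN1 libraries, at 30.8 and 38.5 CPM, overlapped the control libraries. Creld2, an ER protein with disulfide isomerase activity, stood at 51.1 and 47.8 CPM in PB-GPC4 and 41.8 and 36.0 CPM in PB-CCN1, against 36.7 and 36.5 CPM in PB-Ctrl. Its PB-GPC4 libraries were the highest 2 and the other 4 overlapped, with a rise of 0.43 ± 0.09 in PB-GPC4 (edgeR adjusted p = 0.00244).

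Rises of the disulfide isomerases Pdia3 and Pdia6 were close to that of Hspa5, with overlapping SE. Pdia3 stood at 233 and 239 CPM in PB-GPC4 and 204 and 211 CPM in PB-CCN1, against 194 and 189 CPM in PB-Ctrl, a rise of 0.30 ± 0.05 in PB-GPC4 (edgeR adjusted p = 4.21e-04). Pdia6 stood at 320.3 and 331 CPM in PB-GPC4 and 283 and 281 CPM in PB-CCN1, against 267 and 269.7 CPM in PB-Ctrl, a rise of 0.28 ± 0.05 in PB-GPC4 (edgeR adjusted p = 5.72e-04). In both genes the PB-GPC4 libraries were highest and the PB-CCN1 libraries lay between them and the control. Calr, the calcium-binding lectin chaperone calreticulin, stood at 389 and 397 CPM in PB-GPC4 and 391 and 399 CPM in PB-CCN1, against 349 and 338 CPM in PB-Ctrl. It was the smallest of the 12 rises in PB-GPC4, at 0.20 ± 0.05 (edgeR adjusted p = 0.0203), and equally high under both plasmids, with 0.20 ± 0.05 in PB-CCN1 (edgeR adjusted p = 0.0485). Pdia4 and Sdf2l1, a partner of ERdj3, rose by 0.36 and 0.54 in PB-GPC4. Dnajb9, the cochaperone ERdj4, stood at 47.9 and 50.6 CPM in PB-GPC4, against 47.6 and 43.4 CPM in PB-Ctrl, and its 0.12 ± 0.09 did not pass (edgeR adjusted p = 0.494). Leaving out 1 library of the comparison ended 4 of the 12 calls in edgeR: Calr without any 1 of the 4 (adjusted p = 0.0889 to 0.205), Creld2 without PB-GPC4 replicate 1 (adjusted p = 0.0614), and Pdia4 and Sdf2l1 without PB-GPC4 replicate 2 (adjusted p = 0.0619 and 0.0655). Pdia4 also lost its call without PB-Ctrl replicate 2 (adjusted p = 0.131) and Sdf2l1 without PB-Ctrl replicate 1 (adjusted p = 0.0713).

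**Figure D2:**
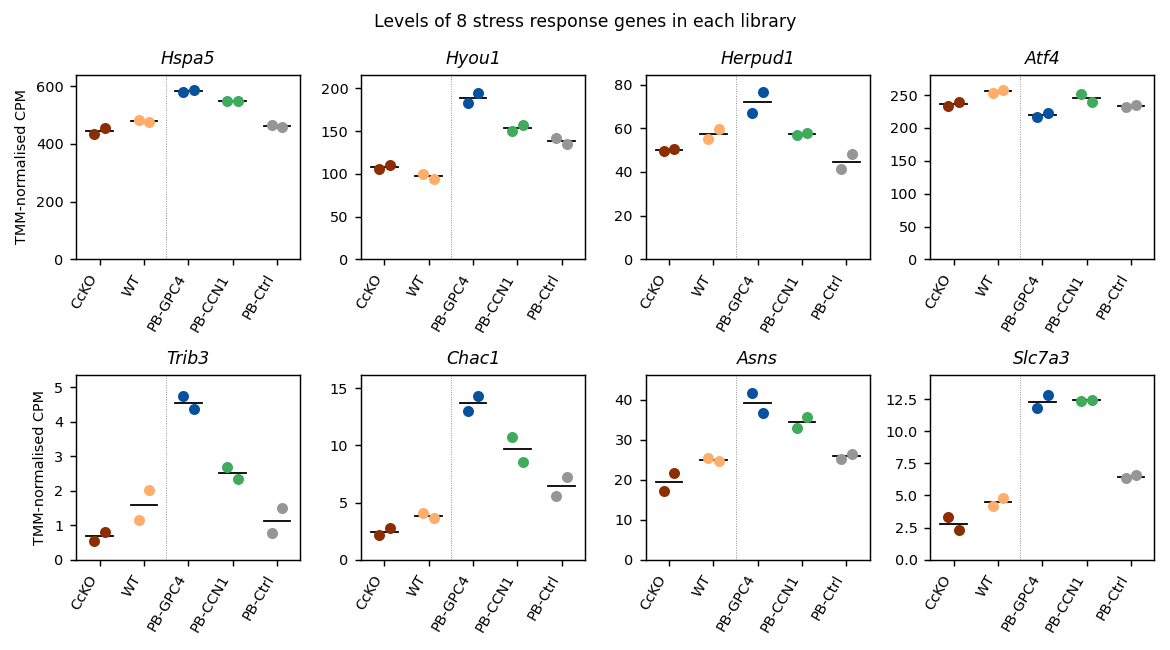
TMM-normalised CPM (y axes from 0) of 8 genes in each library, one point per library and a line at the group mean, with E17.5 groups left and E15.5 groups right of the dotted line. Hspa5, Hyou1, Herpud1, Trib3 and Chac1 are highest in PB-GPC4 and lower in PB-CCN1 and PB-Ctrl, Slc7a3 is equally high under both plasmids, and Atf4 is lowest in PB-GPC4 among the E15.5 groups.

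Of the ER-associated degradation genes only Herpud1 passed in the plasmid experiment in the joint edgeR fit. Herpud1 encodes a membrane protein of the complex that returns misfolded proteins to the cytosol. It stood at 67.1 and 76.5 CPM in PB-GPC4 and 56.7 and 57.7 CPM in PB-CCN1, against 41.1 and 48.1 CPM in PB-Ctrl. The groups did not overlap, and it rose by 0.69 ± 0.08 in PB-GPC4 (edgeR adjusted p = 3.77e-06). That value was above those of the 13 chaperones, an order that was not tested. In PB-CCN1 the rise was 0.36 ± 0.08 (edgeR adjusted p = 0.0275). Edem1, which extracts misfolded glycoproteins, stood at 46.4 and 44.2 CPM in PB-GPC4, against 37.7 and 39.1 CPM in PB-Ctrl, without passing (0.24 ± 0.09, edgeR adjusted p = 0.135). Sel1l and Syvn1, the adaptor and the ubiquitin ligase of the central degradation complex, gave 0.12 ± 0.06 and -0.06 ± 0.07, and neither passed (edgeR adjusted p = 0.219 and 0.697), although the Syvn1 window holds an ERSE. Sel1l stood at 166.8 and 172.5 CPM in PB-GPC4 and 147.5 and 146.4 CPM in PB-CCN1, against 154.3 and 157.7 CPM in PB-Ctrl. DESeq2 called its difference between the plasmids.

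Among the sensors and XBP1, Xbp1 rose in PB-GPC4, with 79.8 and 80.7 CPM in PB-GPC4 and 77.9 and 77.7 CPM in PB-CCN1, against 64 and 68.0 CPM in PB-Ctrl. The log2 fold change was 0.28 ± 0.07 in PB-GPC4 (edgeR adjusted p = 0.0105) and 0.24 ± 0.07 in PB-CCN1, which did not pass (edgeR adjusted p = 0.101), although both plasmid groups lay above the control. The PB-GPC4 call was lost without PB-GPC4 replicate 1, PB-GPC4 replicate 2 or PB-Ctrl replicate 1 (edgeR adjusted p = 0.078, 0.0905 and 0.158). The sensors themselves did not pass: in PB-GPC4 the values were 0.09 ± 0.09 for Atf6, 0.01 ± 0.13 for Ern1 (IRE1α) and 0.11 ± 0.09 for Eif2ak3 (PERK, 10% of whose exonic bases lie opposite another gene), with edgeR adjusted p from 0.521 to 0.984.

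The ATF4-CHOP branch was uneven: 4 of 11 genes rose in PB-GPC4 (3.19% of all genes tested did), and they were effectors and Atf5, not Atf4 or Ddit3. Atf4 stood at 217 and 223 CPM in PB-GPC4 and 252 and 239.6 CPM in PB-CCN1, against 231 and 234 CPM in PB-Ctrl. Its libraries were lowest in PB-GPC4 and highest in PB-CCN1, and neither difference from the control passed (-0.08 ± 0.05, edgeR adjusted p = 0.382 for PB-GPC4 and 0.08 ± 0.05, adjusted p = 0.59 for PB-CCN1). Ddit3, the proapoptotic factor CHOP, stood at 29.0 and 29.3 CPM in PB-GPC4 and 31.2 and 27.2 CPM in PB-CCN1, against 25.1 and 25.1 CPM in PB-Ctrl. Its 0.22 ± 0.12 in both comparisons did not pass (edgeR adjusted p = 0.323 and 0.513), and reads over 9.1% of its exonic bases overlap genes on the other strand.

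Trib3, a pseudokinase that feeds back on ATF4 and CHOP, stood at 4.76 and 4.36 CPM in PB-GPC4 and 2.69 and 2.33 CPM in PB-CCN1, against 0.772 and 1.49 CPM in PB-Ctrl. These are 122 and 133 reads, 60 and 54 reads, and 20 and 42 reads. The rise of 2.00 ± 0.38 in PB-GPC4 (edgeR adjusted p = 0.00124) was the largest of the 42 genes, and the 1.14 ± 0.39 in PB-CCN1 did not pass (edgeR adjusted p = 0.2), although the groups did not overlap. Chac1, which degrades glutathione, stood at 13.0 and 14.4 CPM in PB-GPC4 and 10.8 and 8.53 CPM in PB-CCN1, against 5.59 and 7.27 CPM in PB-Ctrl. It stood in the same order without overlap, with a rise of 1.09 ± 0.19 in PB-GPC4 (edgeR adjusted p = 4.21e-04) and 0.58 ± 0.19 in PB-CCN1, which did not pass (edgeR adjusted p = 0.177). Atf5, a relative of ATF4, stood at 57.4 and 64.8 CPM in PB-GPC4 and 51.0 and 47.8 CPM in PB-CCN1, against 45.0 and 45.1 CPM in PB-Ctrl, a rise of 0.44 ± 0.09 in PB-GPC4 (edgeR adjusted p = 0.00175). Sesn2, a leucine sensor that restrains mTORC1, stood at 16.3 and 17.6 CPM in PB-GPC4 and 13.3 and 15 CPM in PB-CCN1, against 11.5 and 12.6 CPM in PB-Ctrl, a rise of 0.49 ± 0.14 in PB-GPC4 (edgeR adjusted p = 0.0362). In both genes the 3 groups kept the order of Chac1 without overlap.

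Trib3 lost its call without PB-Ctrl replicate 1, Atf5 without PB-GPC4 replicate 2 and Sesn2 without any 1 of the 4 libraries. Chac1 kept its call in all 18 alternatives counted. DESeq2 gave Trib3 no adjusted p. The 7 ATF4-CHOP genes that did not pass in PB-GPC4 were Atf4, Ddit3, the mTORC1 inhibitor Ddit4 (-0.07), the eIF2α phosphatase subunit Ppp1r15a (0.07), Cebpb (0.65), Stc2 (0.48) and Nupr1 (1.21), the last 3 at low levels with SE of 0.24 to 0.93.

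In amino acid supply 5 of 10 genes rose in PB-GPC4, beside 3.19% of all genes tested: the 4 transporter genes and Asns. Asns, which makes asparagine, stood at 41.6 and 36.7 CPM in PB-GPC4 and 33.0 and 35.7 CPM in PB-CCN1, against 25.3 and 26.6 CPM in PB-Ctrl. The groups did not overlap, with a rise of 0.59 ± 0.10 in PB-GPC4 (edgeR adjusted p = 5.9e-04) and 0.41 ± 0.11 in PB-CCN1, just short of the threshold (edgeR adjusted p = 0.0572). Slc7a3, a transporter of cationic amino acids, stood at 11.8 and 12.8 CPM in PB-GPC4 and 12.3 and 12.5 CPM in PB-CCN1, against 6.36 and 6.56 CPM in PB-Ctrl. Both plasmid groups lay at nearly the same level, with 0.93 ± 0.18 in PB-GPC4 (edgeR adjusted p = 0.00134) and 0.94 ± 0.18 in PB-CCN1 (edgeR adjusted p = 0.00352). Slc7a5, the light chain of the LAT1 transporter of large neutral amino acids, stood at 129.6 and 124 CPM in PB-GPC4 and 113 and 123 CPM in PB-CCN1, against 97.0 and 99.4 CPM in PB-Ctrl. It rose by 0.37 ± 0.06 in PB-GPC4 (edgeR adjusted p = 5.77e-04) and by 0.26 ± 0.07 in PB-CCN1 (edgeR adjusted p = 0.0395), each above the control without overlap. Slc3a2, its heavy chain, stood at 173 and 158 CPM in PB-GPC4 and 154 and 159 CPM in PB-CCN1, against 128 and 139 CPM in PB-Ctrl, 0.31 ± 0.06 in PB-GPC4 (edgeR adjusted p = 0.00131) and 0.23 ± 0.06 in PB-CCN1 (edgeR adjusted p = 0.0534). The plasmid groups overlapped each other and lay above the control. Slc7a1, the widely expressed cationic transporter, stood at 73.3 and 73.9 CPM in PB-GPC4 and 64.0 and 64 CPM in PB-CCN1, against 60.6 and 56.0 CPM in PB-Ctrl, a rise of 0.34 ± 0.07 in PB-GPC4 (edgeR adjusted p = 0.00364).

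The serine synthesis and one-carbon genes did not pass in PB-GPC4 in the joint edgeR fit. Of these, Shmt2 was called higher with the E15.5 libraries fitted alone and with length and GC trends removed. Phgdh and Psat1, the first steps of serine synthesis, gave -0.03 ± 0.08 and -0.13 ± 0.09, and Psph, the last step, 0.12 ± 0.12. On the opposite strand Cct6a covers 26.1% of the exonic bases of Psph, whose reads cannot be told apart without strand information. Mitochondrial Shmt2 and Mthfd2 gave 0.16 ± 0.06 and 0.14 ± 0.11, and edgeR adjusted p for the 5 ran from 0.128 to 0.869. Psat1 was lower in both PB-GPC4 libraries, at 69.9 and 64.4 CPM, against 71.2 and 75.6 CPM in PB-Ctrl. The division of the supply list into transporters with Asns and serine and one-carbon genes was made after the values were seen. Leaving out 1 library ended the PB-GPC4 calls of Slc7a1 (edgeR adjusted p = 0.0517 without PB-GPC4 replicate 2 and 0.122 without PB-Ctrl replicate 2) and Slc3a2 (edgeR adjusted p = 0.0791 without PB-GPC4 replicate 1 and 0.0729 without PB-Ctrl replicate 1).

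**Figure D3:**
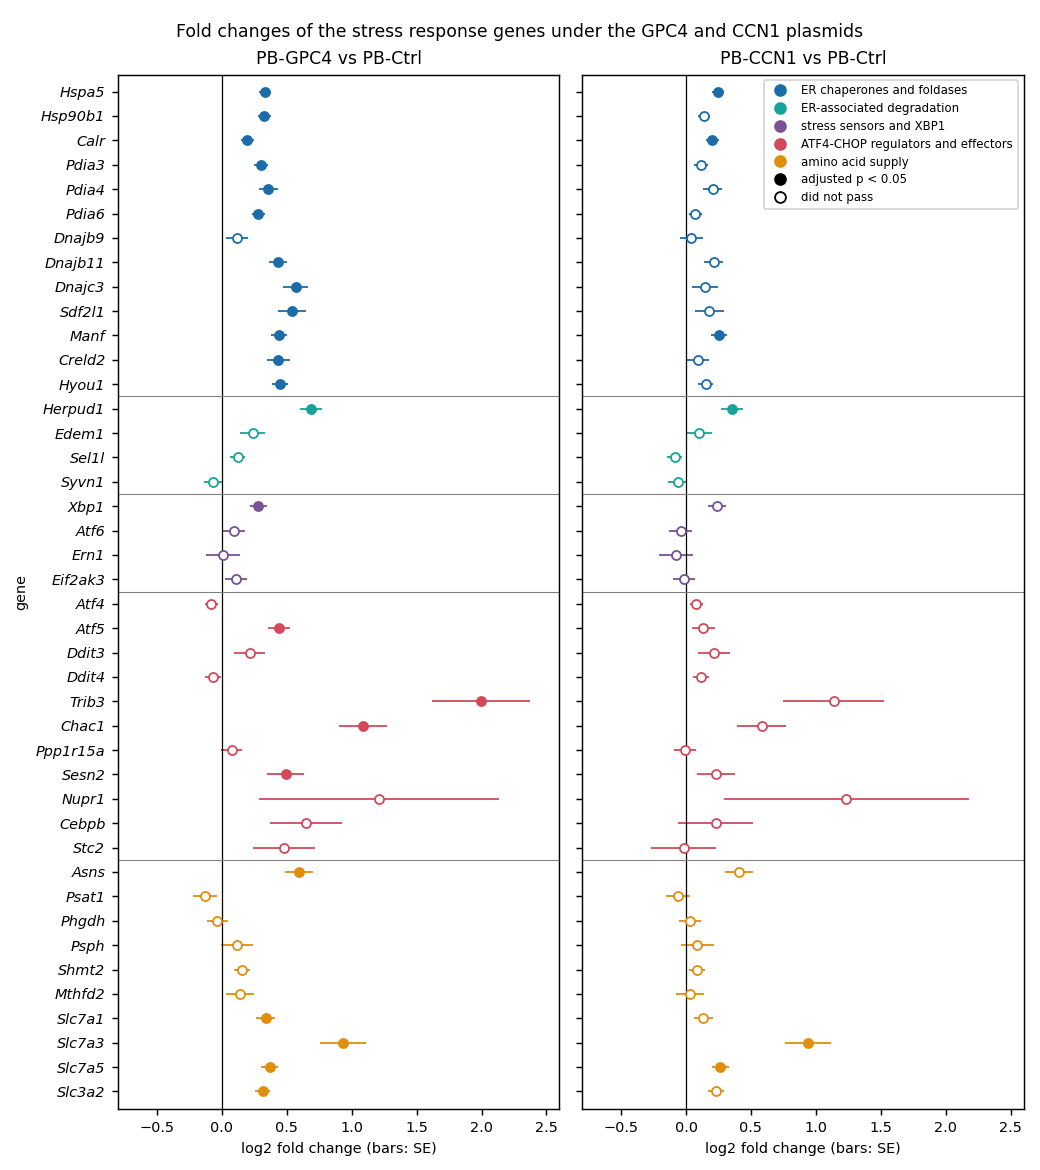
Log2 fold change over PB-Ctrl (x axis; bars are SE) of each of the 42 genes, coloured by role, in PB-GPC4 (left) and PB-CCN1 (right), with filled points for edgeR adjusted p under 0.05. In PB-GPC4, 23 points are filled, 12 of them in the chaperone block; in PB-CCN1, 6 are filled, and both panels use the same control libraries.

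Set side by side, the ER chaperone branch shifted together in PB-GPC4 and the amino acid supply branch was divided. The median log2 fold change was 0.36 for the 13 chaperones, with a range of 0.12 to 0.57, and 0.23 for the 10 supply genes, with a range of -0.13 to 0.93, beside -0.0036 over all genes tested. By library, the median of log2 CPM over the control mean was 0.33 and 0.35 for the chaperones and 0.24 and 0.21 for the supply genes in PB-GPC4, against values from -0.02 to 0.02 for both roles in the PB-Ctrl libraries. The 11 ATF4-CHOP genes, in neither role, had medians of 0.32 and 0.55 in PB-GPC4. These were about level with the chaperones in replicate 1 and above them in replicate 2. The chaperone median exceeded the supply median by 0.12, by 0.08 to 0.17 when 1 library was left out and by 0.06 once trends with gene length and GC content were removed. No p is attached to this difference. In PB-CCN1 both medians were smaller, 0.15 for the chaperones and 0.11 for the supply genes, a difference of 0.04 that became -0.03 without PB-Ctrl replicate 1. In the knockout the chaperones lay below the supply genes. By library, medians over the WT mean were -0.14 and -0.11 for the chaperones and -0.05 and 0.03 for the supply genes in CcKO. Called genes were 12 of 13 chaperones against 5 of 10 supply genes in PB-GPC4, and 3 of 13 against 2 of 10 in PB-CCN1. Over all genes tested, 6.36% were called in PB-GPC4 and 1.19% in PB-CCN1.

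**Figure D4:**
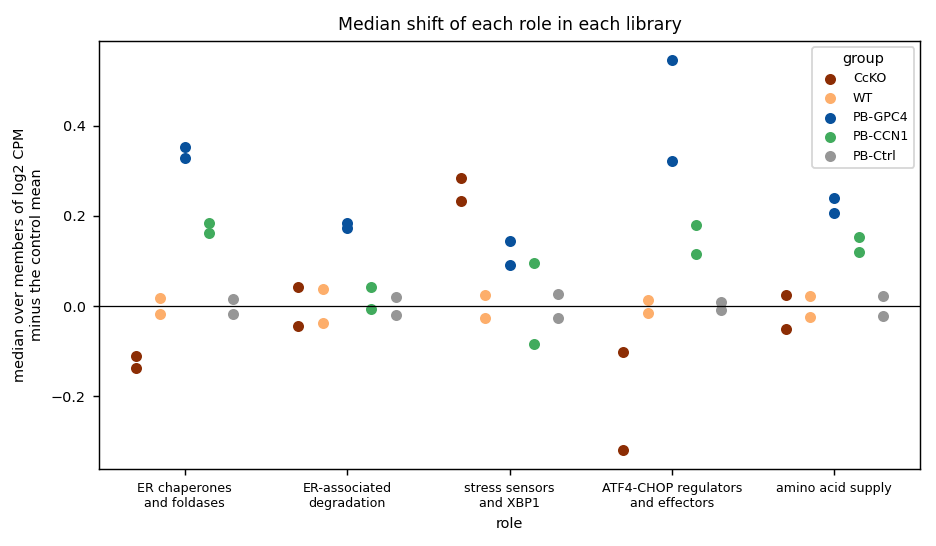
Median over the members of each role (x axis) of log2 CPM minus the mean of the control group of the same age (y axis), one point per library, coloured by group. PB-GPC4 points are above PB-CCN1 and PB-Ctrl points for chaperones (0.33 and 0.35), ATF4-CHOP genes (0.32 and 0.55) and amino acid supply (0.24 and 0.21). CcKO points lie below 0 for chaperones and above 0 for the sensors.

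The 6 genes called between the plasmids in the joint edgeR fit of all 10 libraries were 5 chaperones and the degradation gene Herpud1. Hyou1 was 0.30 ± 0.06 higher in PB-GPC4 than in PB-CCN1 (edgeR adjusted p = 0.00485), Dnajc3 0.42 ± 0.10 (adjusted p = 0.0167) and Pdia6 0.21 ± 0.05 (adjusted p = 0.0224). Herpud1 was 0.33 ± 0.08 higher (edgeR adjusted p = 0.0297), Creld2 0.35 ± 0.09 (adjusted p = 0.0345) and Hsp90b1 0.19 ± 0.05 (adjusted p = 0.0345). No gene of the ATF4-CHOP or amino acid supply lists passed in this joint edgeR fit. At an unadjusted p under 0.05, 3 of the 11 were higher and 2 lower, and 1 of the 10 was higher. DESeq2 called 1 (Atf5). For Calr (-0.01, with a 95% interval of -0.11 to 0.09) and Slc7a3 (-0.01, -0.34 to 0.33) the plasmids gave nearly the same level. Hspa5 (0.09, -0.0005 to 0.17) and Xbp1 (0.04, -0.09 to 0.18) did not pass, nor did Trib3 (0.86, 0.16 to 1.56).

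Leaving out 1 library of this comparison left 0 to 2 of the 6 calls in edgeR. Without PB-GPC4 replicate 2 none of the 6 passed (adjusted p = 0.106 for Creld2 to 0.379 for Herpud1), and without PB-GPC4 replicate 1, PB-CCN1 replicate 1 and PB-CCN1 replicate 2 there remained 2, 1 and 2. For the 6 calls in PB-CCN1 against PB-Ctrl the counts were 2 without PB-CCN1 replicate 1, 1 without PB-CCN1 replicate 2, 0 without PB-Ctrl replicate 1 (adjusted p = 0.0607 for Hspa5 to 0.562 for Herpud1), 1 without PB-Ctrl replicate 2 and 3 without either PB-GPC4 library. Leaving out a CcKO library, which belongs to neither comparison but shares the normalisation, filter and estimate of spread, raised the counts: 9 genes were then called in PB-CCN1 against PB-Ctrl without either, and between the plasmids 11 higher and 2 lower without CcKO replicate 1 and 11 higher and 1 lower without CcKO replicate 2. Fitted on the 6 E15.5 libraries alone, edgeR called 12 genes higher in PB-CCN1 against PB-Ctrl, adding Hsp90b1, Pdia4, Xbp1, Chac1, Asns and Slc3a2. In PB-GPC4 against PB-Ctrl that fit called 25 genes higher, adding Edem1 and Shmt2. Between the plasmids that fit called 14 genes higher in PB-GPC4 and 2 lower. The 14 included Atf5, Chac1 and Slc7a1 of the ATF4-CHOP and supply lists, and the 2 lower were Atf4 and Ddit4.

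The knockout did not mirror the plasmids gene for gene, and its fold changes followed gene length. Across the 15371 genes tested the Spearman correlation of the CcKO fold change with gene length was 0.434 (a description across genes, which do not replicate one another). The 10% shortest genes had a median of -0.28 on the log2 scale and the 10% longest one of 0.33, so each call is given with that trend removed as well. Of the chaperones, 5 of 13 fell in CcKO and 0 rose by edgeR, beside 12.9% of all genes lower and 17.4% higher. At an unadjusted p under 0.05 the counts were 1 higher and 6 lower, and DESeq2 called 0 higher and 6 lower. Hsp90b1 stood at 328 and 312 CPM in CcKO, against 389 and 377 CPM in WT (-0.26 ± 0.05, edgeR adjusted p = 1.63e-04). Pdia6 stood at 250 and 263 CPM in CcKO, against 300.5 and 311 CPM in WT (-0.25 ± 0.05, edgeR adjusted p = 2.44e-04). Dnajb11 stood at 65.4 and 68.6 CPM in CcKO, against 81.4 and 75.6 CPM in WT (-0.23 ± 0.07, edgeR adjusted p = 0.0166). These 3 were lower without overlap and kept their calls with the length trend removed. Pdia3, at 192 and 199.9 CPM in CcKO against 221 and 215 CPM in WT (-0.15 ± 0.05, edgeR adjusted p = 0.0248), did not (-0.13, adjusted p = 0.0857), although it passed once the GC trend was removed as well (adjusted p = 0.0186). Nor did Creld2, at 33.7 and 33.5 CPM in CcKO against 39.3 and 43.2 CPM in WT (-0.30 ± 0.09, edgeR adjusted p = 0.0126, and -0.12 with adjusted p = 0.41 once the trend was removed). Hspa5, at 436 and 456 CPM in CcKO against 483 and 476 CPM in WT, was lower in both libraries without passing (-0.10 ± 0.04, edgeR adjusted p = 0.0797), although DESeq2 called it (adjusted p = 0.03).

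Ern1, the IRE1α sensor, rose the most in CcKO. It stood at 16.9 and 13.3 CPM in CcKO, against 7.59 and 7.63 CPM in WT, a fold change of 1.98 (0.99 ± 0.15 on the log2 scale, edgeR adjusted p = 7.02e-06). The call held in all 19 alternatives run for the knockout, as did those of Hsp90b1, Pdia6 and Slc3a2. Atf6 stood at 36.7 and 41.2 CPM in CcKO, against 32.3 and 28.2 CPM in WT (0.37 ± 0.09, edgeR adjusted p = 0.00222), and Edem1 at 39.3 and 32.7 CPM in CcKO, against 26.3 and 29.0 CPM in WT (0.38 ± 0.10, edgeR adjusted p = 0.00349). Both are long transcripts, and with the length trend removed neither passed (0.09 and 0.17, edgeR adjusted p = 0.57 and 0.239). Xbp1, the substrate of IRE1α, stood at 68.2 and 75.3 CPM in CcKO, against 77.9 and 76.5 CPM in WT, and did not pass (-0.10 ± 0.07, edgeR adjusted p = 0.269).

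Of the ATF4-CHOP genes 3 of 11 fell in CcKO and 0 rose by edgeR, beside 12.9% of all genes lower and 17.4% higher. At an unadjusted p under 0.05 the counts were 6 lower and 0 higher, and DESeq2 called Trib3 and Chac1. Trib3 stood at 0.551 and 0.797 CPM in CcKO, against 1.15 and 2.03 CPM in WT (-1.24 ± 0.43, edgeR adjusted p = 0.0273). Chac1 stood at 2.12 and 2.79 CPM in CcKO, against 4.05 and 3.64 CPM in WT (-0.64 ± 0.23, edgeR adjusted p = 0.0323). Both were lower without overlap. Ddit3 stood at 21.02 and 24.3 CPM in CcKO, against 23.7 and 33.0 CPM in WT, where the groups overlapped (-0.33 ± 0.12, edgeR adjusted p = 0.0414). With the length trend removed none of the 3 passed in edgeR, but their values differed: Trib3 was at -1.15 (adjusted p = 0.0623) and Chac1 at -0.49 (adjusted p = 0.143), while Ddit3 was at -0.06 (adjusted p = 0.77). Atf4 stood at 234 and 239 CPM in CcKO, against 253 and 258 CPM in WT, without passing (-0.11 ± 0.05, edgeR adjusted p = 0.0916).

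Amino acid supply went both ways in CcKO, with 3 of 10 lower and 2 higher, beside 12.9% of all genes lower and 17.4% higher. Slc3a2 stood at 125 and 126 CPM in CcKO, against 146 and 151 CPM in WT (-0.25 ± 0.06, edgeR adjusted p = 0.00226). Slc7a3 stood at 3.35 and 2.28 CPM in CcKO, against 4.18 and 4.82 CPM in WT (-0.69 ± 0.21, edgeR adjusted p = 0.0126). Asns stood at 17.2 and 21.7 CPM in CcKO, against 25.3 and 24.8 CPM in WT (-0.36 ± 0.11, edgeR adjusted p = 0.0124). The 3 falls showed no overlap, and Asns did not pass with the length trend removed (-0.26, adjusted p = 0.0975). Slc7a1 stood at 48.3 and 48.7 CPM in CcKO, against 37.8 and 38 CPM in WT (0.35 ± 0.07, edgeR adjusted p = 5.69e-04), a rise that did not pass with the trend removed (0.08, adjusted p = 0.503). Phgdh stood at 65.2 and 64.6 CPM in CcKO, against 51.9 and 57.4 CPM in WT (0.25 ± 0.08, edgeR adjusted p = 0.0176), and passed with the trend removed too. With that trend removed, 8 of the 42 genes were called, 3 higher and 5 lower, beside 9.37% of all genes higher and 7.85% lower (17.2% in all). Among the 3 higher, Psat1 had not been called as counted.

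Leaving out 1 library ended 11 of the 16 knockout calls in edgeR, all but those of Hsp90b1, Pdia6, Ern1, Slc7a1 and Slc3a2. Without CcKO replicate 1 the calls of Pdia3 (adjusted p = 0.12), Dnajb11 (0.0932), Edem1 (0.103), Ddit3 (0.263), Trib3 (0.142), Chac1 (0.219), Asns (0.233) and Phgdh (0.0572) were lost, and without CcKO replicate 2 those of Atf6 (0.0624), Phgdh (0.0659) and Slc7a3 (0.178). Without WT replicate 1 those of Pdia3 (0.113), Dnajb11 (0.152), Chac1 (0.136), Asns (0.0597) and Phgdh (0.162) were lost. Without WT replicate 2 those of Creld2 (0.161), Atf6 (0.0735), Ddit3 (0.795), Trib3 (0.344), Chac1 (0.0688), Asns (0.0552) and Slc7a3 (0.119) were lost. Ddit3 also lost its call without PB-GPC4 replicate 1 (0.0511), a library outside the comparison that shares its normalisation, filter and estimate of spread. The count of called genes was 10 without CcKO replicate 1 and 9 without WT replicate 2.

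**Figure D5:**
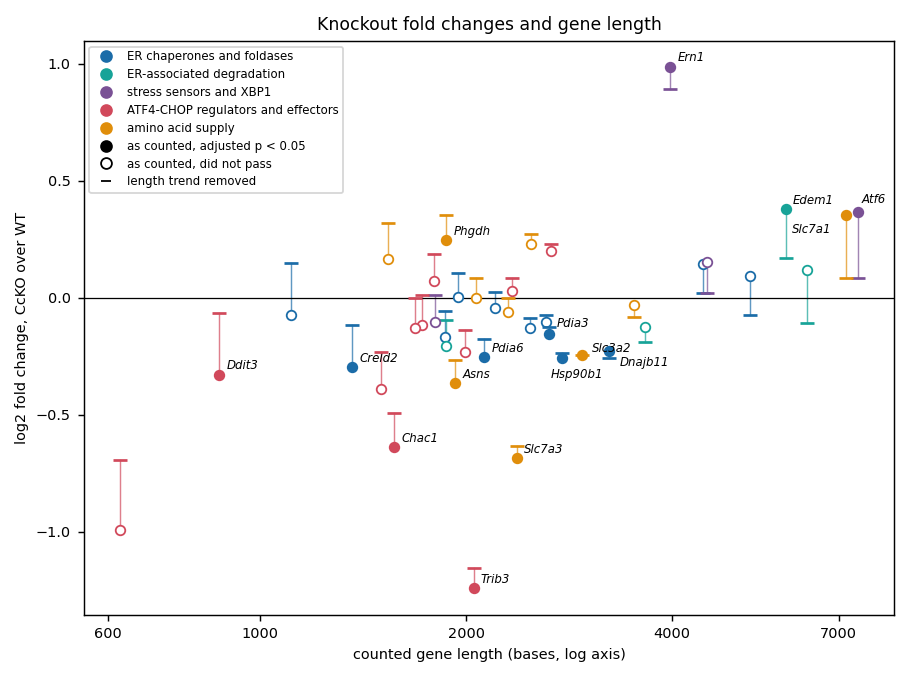
Log2 fold change of CcKO over WT (y axis) against counted gene length (x axis, log scale) for the 42 genes, with circles for the fit as counted (filled where edgeR adjusted p was under 0.05) and dashes for the fit with the length trend removed. Ern1 stays near 0.89 and Trib3 near -1.15 after removal, while Atf6, Slc7a1 and Edem1 move towards 0.

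Among 97 further genes of the same pathways, 96 were tested. In PB-GPC4 against PB-Ctrl 19 rose and 1 fell, with a median of 0.11, beside 3.19% of all genes higher and 3.17% lower. They included 4 of 18 ER folding genes: the lectin chaperone Canx (0.31, edgeR adjusted p = 2.08e-04), the oxidase Ero1b (0.83, adjusted p = 0.00251), Hspa13 (0.29, adjusted p = 0.0176) and Erp44 (0.26, adjusted p = 0.0282). Of 17 ER translocation genes 5 rose: Ssr3 (0.33, edgeR adjusted p = 2.41e-04) and Ssr2 (0.36, adjusted p = 0.00133) of the translocon-associated complex, the signal peptidase subunit Sec11c (0.50, adjusted p = 0.00721), the channel subunit Sec61a1 (0.20, adjusted p = 0.0442), and Srp54a, whose near-identical copies make its counts uncertain. Of 18 degradation genes only Derl3 rose (1.18, edgeR adjusted p = 0.00439). Of 13 aminoacyl-tRNA synthetases, which charge tRNA with amino acids, 5 rose: Nars (0.26), Eprs (0.23), Gars (0.26), Sars (0.20) and Tars (0.24), with edgeR adjusted p from 0.00597 to 0.0367. With the further ATF4 targets below, Ccn1 and Gpc4, these made 22 calls in PB-GPC4. Limma on log2 FPKM plus 1 did not call 13 of the 22.

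The largest rise among the further ATF4 targets was Slc7a11, the cystine transporter. It stood at 113 and 82.2 CPM in PB-GPC4 and 67.3 and 62.1 CPM in PB-CCN1, against 14.3 and 16.1 CPM in PB-Ctrl. The 3 groups did not overlap, and the log2 fold change was 2.68 ± 0.21 in PB-GPC4 (edgeR adjusted p = 1.44e-09) and 2.09 ± 0.21 in PB-CCN1 (adjusted p = 3.28e-07), larger than that of any of the 42 genes in PB-GPC4. Gpt2, Aldh1l2 and Eif4ebp1 also rose in PB-GPC4 (0.43, 0.39 and 0.64, edgeR adjusted p = 4.67e-04, 0.00101 and 0.0453), and the glutamine transporter Slc1a5 fell (-0.80, adjusted p = 0.0066). In PB-CCN1 2 of the 96 rose, Slc7a11 and Srp54a, and 2 fell, Slc1a5 (-0.84, edgeR adjusted p = 0.0148) and Atf3 (-1.58, adjusted p = 0.0225). Over all genes tested in PB-CCN1, 0.442% rose and 0.748% fell. Directly between the plasmids Ssr3 and Gpt2 were higher in PB-GPC4 (0.25 and 0.30, edgeR adjusted p = 0.0104 and 0.0319).

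In CcKO against WT 16 of the 96 rose and 21 fell, beside 17.4% of all genes higher and 12.9% lower. The ER translocation list had 9 of 17 lower and 2 higher, with Sec62 (-0.43, edgeR adjusted p = 3.31e-06), Ssr2 (-0.36, adjusted p = 1.19e-04), Srp19 (-0.47, adjusted p = 1.52e-04) and Spcs1 (-0.39, adjusted p = 1.67e-04) leading. With the length trend removed Sec62 stayed called (adjusted p = 1.8e-07) and Ssr2, Srp19 and Spcs1 did not (adjusted p = 0.113, 0.0988 and 0.141). The degradation genes Aup1 and Edem2 fell (-0.51 and -0.50, edgeR adjusted p = 2.81e-06 and 8.94e-05), both also with the trend removed. The synthetases Cars and Sars fell (-0.40 and -0.25, edgeR adjusted p = 8.59e-05 and 7.33e-04), also with the trend removed. Slc7a11 was low at this age, at 1.65 and 7.75 CPM in CcKO against 2.13 and 1.61 CPM in WT, and its call (1.37, edgeR adjusted p = 0.00773) rested on CcKO replicate 2, without which it was -0.18 (adjusted p = 0.765).

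Other genes moved with the plasmid groups. The handling list of immediate early and heat shock genes summed to between 1072 and 1161 CPM in PB-GPC4 and 1412 and 1448 CPM in PB-CCN1, against 1530 and 1544 CPM in PB-Ctrl, with 7 of 10 genes lower in PB-GPC4 and 3 lower and 1 higher in PB-CCN1. Within it, the cytosolic heat shock genes Hspa1a and Hspa1b stood at 1.25 and 1.25 CPM and 2.11 and 1.67 CPM in PB-GPC4, at 0.896 and 0.948 CPM and 1.25 and 1.77 CPM in PB-CCN1, against 10.6 and 12.02 CPM and 26.5 and 23.7 CPM in PB-Ctrl. The radial glia list summed to 694 to 698 CPM in PB-GPC4 and 737 to 740 CPM in PB-CCN1, against 825 to 834 CPM in PB-Ctrl, with 4 of 7 markers lower in PB-GPC4 and 2 of 7 in PB-CCN1. The neuron list summed to 4717 to 4745 CPM in PB-GPC4 and 4362 to 4466 CPM in PB-CCN1, against 4180 to 4194 CPM in PB-Ctrl, with 2 of 5 markers higher in PB-GPC4. The interneuron list summed to 10.6 to 11.0 CPM in PB-GPC4 and 11.0 to 11.8 CPM in PB-CCN1, against 17.1 to 17.4 CPM in PB-Ctrl. The microglia list summed to 7.99 to 9.55 CPM in PB-GPC4 and 3.32 to 4.12 CPM in PB-CCN1, against 5.32 to 5.81 CPM in PB-Ctrl. The erythroid list summed to 8.86 to 11.4 CPM in PB-GPC4 and 4.57 to 5.30 CPM in PB-CCN1, against 8.29 to 8.91 CPM in PB-Ctrl. No list member was at 0 in both libraries of these groups except 1 mural or fibroblast marker in PB-CCN1. At E17.5 the radial glia list summed to 838 to 950.3 CPM in CcKO, against 778 to 794 CPM in WT, with 3 of 7 markers higher, and 2 of 3 erythroid markers tested were higher in CcKO, at sums of 12.8 to 12.9 CPM in CcKO against 3.57 to 4.78 CPM in WT. Over all genes tested, 3.19% were higher and 3.17% lower in PB-GPC4, 0.442% and 0.748% in PB-CCN1, and 17.4% and 12.9% in CcKO. The part of these lists in the stress response results was not tested.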

How the data were processed

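The authors deposited raw counts and FPKM (fragments scaled to gene length and library size) per Entrez gene ID for each library. Per the labels' protocols, TRIzol RNA went into mRNA libraries by KAPA Hyper Prep. Per the submitters' processing notes, bcl2fastq, Trimmomatic, HISAT2, featureCounts and the mm10 build were used; their versions and the strand setting are not given in the sources used here. Counts were tested with edgeR 4.0.16 (R 4.3.3): TMM normalisation, filterByExpr, quasi-likelihood F-test on the 5 group means in 1 fit, Benjamini-Hochberg adjustment over 15371 genes, threshold 0.05. Errors of fold changes are SE, and intervals are the fold change plus and minus 1.96 SE. Group medians by library use log2 CPM with a prior count of 2. FPKM served only to order levels between genes and in limma 3.58.1, with pseudocounts of 1 and 0.1 on the log2 scale. Alternatives were DESeq2 1.42.0, limma, other size factors, no filter, each experiment alone, a replicate block, each library left out, removal of the trend with gene length (lowess span 0.3), and, chosen after seeing the data, removal of trends with gene length and GC content. Depth was 22505945 to 30825498 counts per library, and replicate counts differed beyond sampling noise (chi-square per degree of freedom 3.37 to 8.76), so each library counted once. The 42 members, the marker lists and the further pathway lists were chosen with earlier results of these data known. The text accounts for every member, gives library values for members called in a comparison (at most 8 per role) and for Hspa5, Xbp1, Atf4 and Ddit3, and names up to 6 called genes per further list. The fits were tested on simulated data. Promoter sequences are from RefSeq. Results that need certain withheld genes are not reported here.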

Additional observations from a re-analysis of the deposited data

How the results depend on the processing

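Of the calls among the 42 genes, 12 of 23 in PB-GPC4 against PB-Ctrl held in all 18 alternatives, 4 of 16 in the knockout in all 19, and 0 of 6 in PB-CCN1 against PB-Ctrl and 0 of 6 between the plasmids in all 18. The limma fit with a pseudocount of 0.1 was counted as an alternative only in the knockout. Elsewhere it called 18 members in PB-GPC4, 0 in PB-CCN1 and 0 between the plasmids. Causes were not tested. With each experiment fitted alone the members called were 10 in the knockout, 12 in PB-CCN1, 25 in PB-GPC4 and 16 between the plasmids. All genes called were then 537 in PB-CCN1, 2006 in PB-GPC4 and 990 between the plasmids (183, 978 and 331 in the joint fit). With limma on log2 FPKM plus 1, 0 members were called in PB-CCN1 and 0 between the plasmids, and 34, 341 and 76 of all genes in those 3 comparisons. With no filter on low counts 12 members were called between the plasmids, and 298 of all genes in PB-CCN1 and 589 between the plasmids. In the knockout, 8 members and 2647 genes were called with the length trend removed, where 4663 genes were called as counted. Of the 16 member calls 7 were kept there, and Psat1 was a new call. With length and GC trends removed, 8 members and 2772 genes were called. This last removal moved the chaperone minus supply median in PB-GPC4 to 0.0584. Leaving out 1 library gave 9 to 19 members and 2919 to 4585 genes in the knockout, 0 to 9 and 56 to 283 in PB-CCN1, 16 to 24 and 284 to 1475 in PB-GPC4, and 0 to 13 and 77 to 596 between the plasmids. The chaperone minus supply median then ran from -0.1922 to -0.0493, from -0.0282 to 0.0433, from 0.0776 to 0.1695 and from 0.1057 to 0.1533 in these comparisons. Signs turned in the knockout with the length trend, and with length and GC trends, removed for Xbp1 (0.0124 and 0.0234), Atf4 (0.0128 and 0.0488), Uggt1 (-0.1321 and -0.1528), Cnpy2 (0.0117 and 0.0216) and Aldh1l2 (-0.0242 and -0.0529), for Selenok with the length trend alone (0.0052), and for Slc7a11 without CcKO replicate 2 (-0.1780, against 2.0667 without CcKO replicate 1). Ddit3 between the plasmids, at -0.0016, turned to 0.0078 with DESeq2, 0.0163 with no filter, 0.0081 with relative log expression size factors and -0.0973 to 0.1096 when 1 library was left out. Samples that share a replicate number did not deviate together (correlations of -0.0163 to 0.018), and with a replicate block 18, 5, 23 and 6 members and 4567, 179, 917 and 290 genes were called in the knockout, PB-CCN1, PB-GPC4 and between the plasmids. With 2 libraries per group, Trib3, Nupr1, Cebpb and Stc2 rest on few reads.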
